A study of Mus musculus with 26 samples.

Results

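Fam129b, Rgs1, Ggta1, Arpc1b, Ccdc80, Itga11 and Rtp3 are 7 genes whose mean level in mouse liver stepped in one direction from wildtype through heterozygous to homozygous Mtarc1 knockout on CDAHFD. They were chosen by the order of these group means in these same libraries, so the steps themselves are given here as a description, without a test. All 7 were found among the 55642 gene IDs of the count table, and all 7 passed the filter on low counts that left 17104 genes. Itga11 passed it through the groups where it was higher (below). No cut-off is stated for the choice, and whether the size of the change or its spread entered it is not known. Over the 17104 genes the group means fell through the 3 genotypes in 2806 (16.4%) and rose in 2547 (14.9%), so a graded order of means is common in these data. These shares count order alone and do not measure how unusual the 7 genes are.

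The livers came from 4 groups. Wildtype mice on control chow gave 5 libraries, and wildtype mice given CDAHFD for 2 weeks gave 6. Mice on the same diet with 1 Mtarc1 copy knocked out gave 7 libraries and mice with both copies knocked out gave 8. CDAHFD is a feed rich in fat, made with defined L-amino acids and short of choline, which makes fatty, inflamed liver in mice. Mtarc1 encodes an enzyme of the outer mitochondrial membrane. The labels give no strain, sex or age and do not say which part of Mtarc1 was removed, and no knockout mice on chow were analysed here. A genotype difference on the diet therefore cannot be told apart from one present without it.

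These genes encode proteins of different kinds. Ccdc80 encodes a secreted matrix protein, and Itga11 encodes the alpha chain of an integrin with which fibroblasts hold fibrillar collagen. Arpc1b encodes a subunit of the Arp2/3 complex, which starts branched actin filaments and is needed by moving leukocytes. Rgs1 encodes a protein that shortens signalling by G protein-coupled receptors, chemokine receptors among them, and is best known from leukocytes. Ggta1 encodes the galactosyltransferase that makes the alpha-gal sugar on mouse cells, Fam129b (now also named Niban2) a membrane-associated protein of the Niban family, and Rtp3 a member of the receptor transporter family that is made chiefly in liver. In whole liver, fewer cells of a type and less RNA per cell cannot be told apart.

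Levels are counts per M counts (CPM, where M stands for mega) after scaling of the libraries. Libraries held 19.73 to 29.91 M estimated counts. Mtarc1 (ENSMUSG00000026621.14) followed the labels, with means ± SD of 305 ± 40.2 CPM on chow (5 libraries) and, on CDAHFD, 235 ± 40.7 in wildtype, 161 ± 33.7 in heterozygous and 48.7 ± 10.4 in homozygous livers (6, 7 and 8 libraries). Library names fall into a number series of 9 libraries and one of 17, which the labels do not call batches. The 9-library series holds 1 chow, 3 wildtype CDAHFD, 3 heterozygous and 2 homozygous libraries, and the 17-library series holds 4, 3, 4 and 6. Wildtype CDAHFD samples 2 and 3 belong to the 9-library series and were the 2 highest of their group for Fam129b, Ggta1, Arpc1b and Ccdc80. Whether each library came from its own animal is not stated, and the p-values below measure only the spread between libraries.

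Promoter sequences were at hand for 5 of the 7 genes. Those of Arpc1b and Ggta1 are shown because these 2 genes varied together from liver to liver (below), and that of Rtp3 because it was the gene that moved the other way. Each holds the 250 bases before the transcript start, read 5′ to 3′ on the gene's strand, from RefSeq on GRCm38.p6. Capitals mark matches on either strand to the searched motifs.
Arpc1b: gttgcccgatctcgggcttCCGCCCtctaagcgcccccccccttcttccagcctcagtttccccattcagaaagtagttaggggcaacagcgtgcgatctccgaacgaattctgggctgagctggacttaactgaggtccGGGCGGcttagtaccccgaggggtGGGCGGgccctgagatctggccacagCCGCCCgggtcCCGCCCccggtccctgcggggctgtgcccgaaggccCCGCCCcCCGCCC
Ggta1: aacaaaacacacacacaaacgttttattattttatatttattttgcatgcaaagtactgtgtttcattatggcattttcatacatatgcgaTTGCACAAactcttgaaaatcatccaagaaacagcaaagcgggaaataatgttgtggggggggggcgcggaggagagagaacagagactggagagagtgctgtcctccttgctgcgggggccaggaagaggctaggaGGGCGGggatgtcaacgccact
Rtp3: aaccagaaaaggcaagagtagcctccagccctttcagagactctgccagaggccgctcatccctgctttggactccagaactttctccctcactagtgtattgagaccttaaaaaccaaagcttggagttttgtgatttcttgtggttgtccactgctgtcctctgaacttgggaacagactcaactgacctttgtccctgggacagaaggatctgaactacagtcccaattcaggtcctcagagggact
They lie at chr5:145114006-145114255 (plus strand), chr2:35461450-35461699 (minus) and chr9:110989714-110989963 (minus). The motifs were AP-1 (TGANTCA), PU.1 (GAGGAAGT), TEAD (GGAATG), HNF4 (CAAAGTCCA), C/EBP (TTGCNNAA) and SP1 (GGGCGG), which do not overlap each other in the matches found. The Arpc1b window held 7 SP1 matches, of which the nearest covered bases 6 to 1 before the start, and its GC content was 68.4% against a median of 52.4% over 32851 promoters. The Ggta1 window held 1 C/EBP match, 159 to 152 bases before the start, and 1 SP1 match, and the Rtp3 window held none of the 6 motifs. Of the 2 windows not printed, that of Fam129b held none of the 6 either and that of Itga11 held 1 PU.1 match. Over all 32851 promoters of this length, the share with at least 1 match was 32.7% for SP1, 12.6% for TEAD, 9.56% for C/EBP, 6.75% for AP-1, 2.44% for PU.1 and 0.384% for HNF4. A match describes letters and not a bound site.

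**Figure D1:**
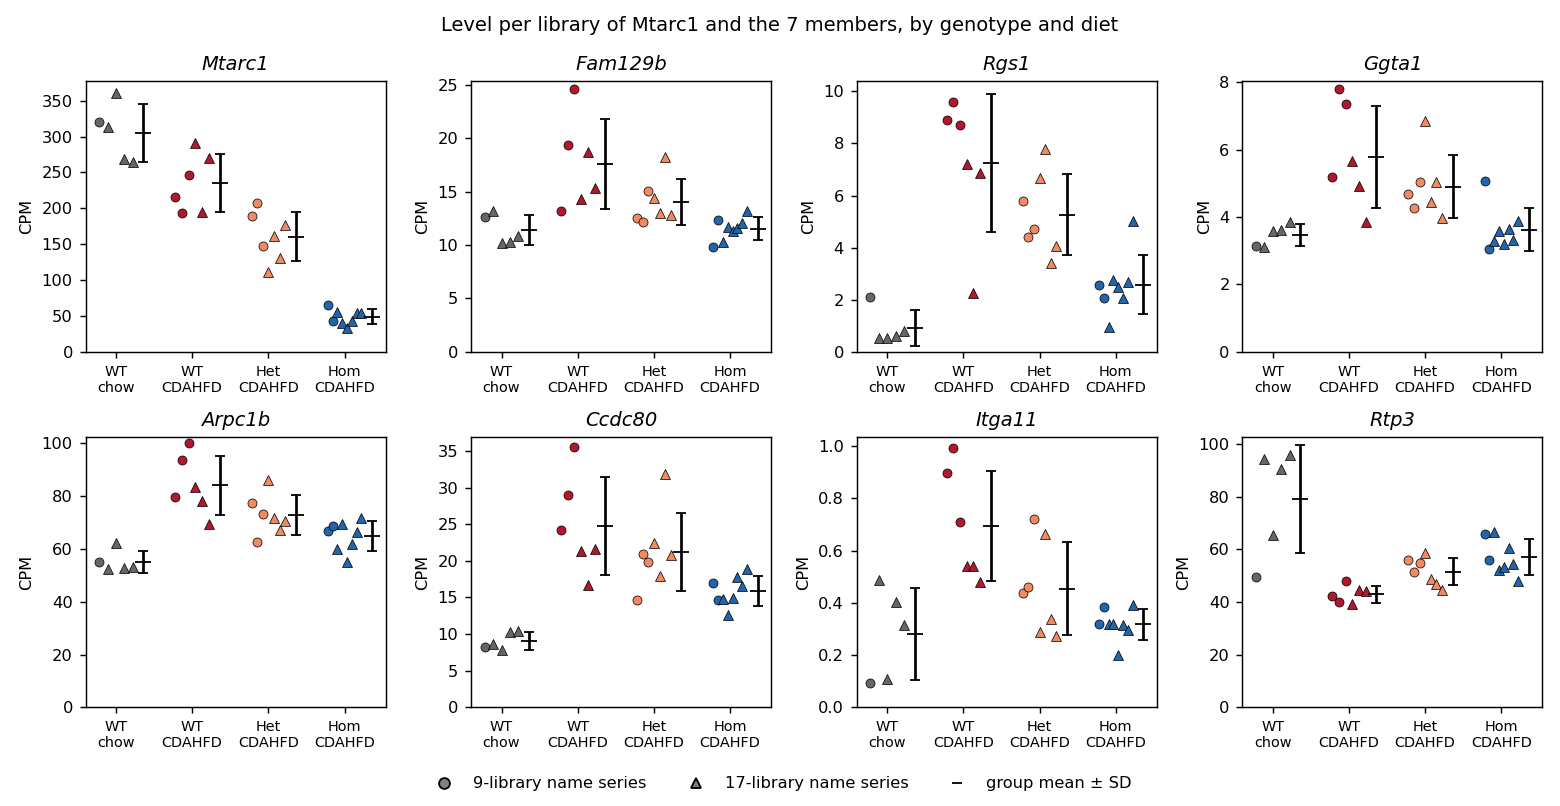
CPM per library (y axes, linear from 0) of Mtarc1 and the 7 genes in wildtype (WT) chow, WT CDAHFD, heterozygous (Het) and homozygous (Hom) livers; circles are the 9-library name series, triangles the 17-library series, and bars are group mean ± SD. Homozygous and wildtype CDAHFD livers do not overlap for Fam129b, Itga11 and Rtp3, and chow livers are the lowest group on average for 6 genes and the highest for Rtp3.

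The matrix gene Ccdc80 (ENSMUSG00000022665.16) was at 8.19, 8.72, 7.80, 10.4 and 10.5 CPM in the 5 chow livers, which lay close together. On CDAHFD it ran from 16.7 to 35.6 CPM (median 22.96) in wildtype, from 14.7 to 31.9 (median 20.8) in heterozygous and from 12.5 to 18.9 (median 15.7) in homozygous livers. Every CDAHFD liver of any genotype thus lay above every chow liver, while the 3 genotypes on the diet overlapped. The means on the diet were 24.8 ± 6.64 CPM (SD, n = 6), 21.2 ± 5.33 (n = 7) and 15.9 ± 2.03 (n = 8). Homozygous livers were lower than wildtype livers on the diet in 45 of 48 pairs of libraries, by 0.64 ± 0.15 (SE) on the log2 scale, and the fitted change per copy lost was -0.32 ± 0.08.

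The integrin gene Itga11 (ENSMUSG00000032243.9) was rare, with 2 to 10 counts per chow library. Chow livers held 0.0921, 0.487, 0.107, 0.402 and 0.317 CPM. Wildtype CDAHFD livers ran from 0.482 to 0.991 CPM (median 0.624), heterozygous livers from 0.272 to 0.720 (median 0.438) and homozygous livers from 0.201 to 0.393 (median 0.318). All 8 homozygous livers lay below all 6 wildtype CDAHFD livers and within the chow range. Group means on CDAHFD were 0.693 ± 0.211 CPM (SD, n = 6), 0.455 ± 0.177 (n = 7) and 0.318 ± 0.0587 (n = 8), a fitted change of -0.56 ± 0.12 per copy lost.

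The signalling brake gene Rgs1 (ENSMUSG00000026358.14) was low in chow livers, at 2.12, 0.536, 0.534, 0.603 and 0.792 CPM, where the first value belongs to the 1 chow library of the 9-library series. Wildtype CDAHFD livers held 2.25 to 9.58 CPM (median 7.95), heterozygous livers 3.42 to 7.77 (median 4.73) and homozygous livers 0.957 to 5.01 (median 2.53). One wildtype CDAHFD liver, sample 5, lay among the homozygous livers and the other 5 lay above all 8 of them. The means on the diet were 7.25 ± 2.66 CPM (SD, n = 6), 5.26 ± 1.55 (n = 7) and 2.58 ± 1.14 (n = 8). The difference between homozygous and wildtype livers on the diet, -1.50 ± 0.31 (SE) on the log2 scale, was the largest of the 7, and heterozygous livers covered 31.1% of it.

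Arpc1b (ENSMUSG00000029622.17), the actin gene, was at 55.1, 52.5, 62.1, 52.7 and 52.9 CPM in chow livers. It ran from 69.5 to 99.9 CPM (median 81.4) in wildtype CDAHFD, from 62.5 to 85.9 (median 71.5) in heterozygous and from 54.9 to 71.6 (median 66.5) in homozygous livers. Wildtype and heterozygous CDAHFD livers all lay above the chow livers, and 5 of 8 homozygous livers did. On CDAHFD the means were 84.0 ± 11.1 CPM (SD, n = 6), 72.6 ± 7.51 (n = 7) and 64.9 ± 5.62 (n = 8), which is the smallest relative step of the 7 genes (-0.18 ± 0.04 per copy lost) with small spread within groups.

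The sugar-transferase gene Ggta1 (ENSMUSG00000035778.18) held 3.13, 3.12, 3.58, 3.62 and 3.85 CPM in chow livers. It ran from 3.85 to 7.79 CPM (median 5.42) in wildtype CDAHFD, from 3.98 to 6.84 (median 4.68) in heterozygous and from 3.04 to 5.08 (median 3.45) in homozygous livers. Of the 8 homozygous livers 7 lay between 3.04 and 3.88 CPM, close to the chow range, and sample 1 stood above them. The means on the diet were 5.79 ± 1.51 CPM (SD, n = 6), 4.90 ± 0.939 (n = 7) and 3.63 ± 0.646 (n = 8), with a fitted change of -0.34 ± 0.08 per copy lost.

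Fam129b (ENSMUSG00000026796.17), of the Niban family, was at 12.6, 13.2, 10.2, 10.3 and 10.9 CPM in chow livers. It ran from 13.2 to 24.6 CPM (median 17.03) in wildtype CDAHFD, from 12.2 to 18.3 (median 13.04) in heterozygous and from 9.84 to 13.2 (median 11.7) in homozygous livers. Homozygous livers lay below every wildtype CDAHFD liver, by a narrow gap, and covered the chow range. Mean levels through the genotypes were 17.6 ± 4.22 CPM (SD, n = 6), 14.05 ± 2.14 (n = 7) and 11.5 ± 1.09 (n = 8), with a fitted change of -0.30 ± 0.06 per copy lost.

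Rtp3 (ENSMUSG00000066319.7), the liver-made receptor transporter gene, ran the other way. Chow livers held 49.6, 94.4, 65.5, 90.6 and 95.8 CPM, a wide range whose lowest value again belongs to the chow library of the 9-library series. Wildtype CDAHFD livers held 39.1 to 47.9 CPM (median 43.2), heterozygous livers 44.5 to 58.6 (median 51.2) and homozygous livers 48.0 to 66.7 (median 55.1). All 8 homozygous livers lay above all 6 wildtype CDAHFD livers. Mean levels on CDAHFD were 43.0 ± 3.22 CPM (SD, n = 6), 51.5 ± 5.16 (n = 7) and 57.1 ± 6.70 (n = 8), with a fitted change of 0.20 ± 0.04 per copy lost.

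Homozygous and wildtype CDAHFD libraries did not overlap for 3 of the 7 genes, Fam129b, Itga11 and Rtp3, where 0.14% of all tested genes showed no overlap (0.0468% higher, 0.0935% lower). This is the contrast that chose the genes, so nothing is read from that count. In the trend per copy lost, edgeR's quasi-likelihood test called 1 of 16730 genes (0.00598%), which was Mtarc1, and 1626 genes had an unadjusted p under 0.05. DESeq2 called 57. Between neighbouring genotypes the libraries of all 7 genes overlapped. Heterozygous livers were lower than wildtype livers in 30 of 42 pairs for Ggta1 and Ccdc80, 33 for Rgs1 and 34 for Arpc1b. They were lower in 35 for Fam129b and Itga11, and higher in 39 for Rtp3. Homozygous livers were lower than heterozygous livers in 40 of 56 pairs for Itga11, 46 for Arpc1b and 49 for Ccdc80. The number was 50 for Ggta1, 51 for Fam129b and 52 for Rgs1, and for Rtp3 they were higher in 40. This second step was -0.51 ± 0.29 (SE, log2) for Itga11 and 0.15 ± 0.11 for Rtp3. Heterozygous livers had covered 31.1% to 63.9% of the homozygous log2 change over the 7 genes, least for Rgs1 and most for Rtp3, while for Mtarc1 itself the share was 24.2%.

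The order of the means held for all 7 genes when any 1 of the 21 CDAHFD libraries was left out, and it also held for the medians. Within the 9-library series all 7 genes were graded. Within the 17-library series Fam129b, Arpc1b, Itga11 and Rtp3 were graded, but Rgs1, Ggta1 and Ccdc80 were not, because heterozygous livers were level with or above wildtype livers. For Rgs1 the means there were 5.44 ± 2.77 CPM (SD, n = 3), 5.48 ± 2.08 (n = 4) and 2.66 ± 1.33 (n = 6) through the genotypes. Ggta1 was at 4.81 ± 0.909, 5.08 ± 1.25 and 3.48 ± 0.261 CPM, and Ccdc80 at 19.9 ± 2.77, 23.3 ± 6.05 and 15.9 ± 2.29 CPM. Among the 3 genotypes on CDAHFD, homozygous livers had the lowest mean of those 3 genes in either series. Without wildtype CDAHFD samples 2 and 3 the wildtype mean of Ccdc80 fell to 21.01 CPM, below the heterozygous mean, and that of Ggta1 was level with the heterozygous mean at 4.90 CPM.

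**Figure D2:**
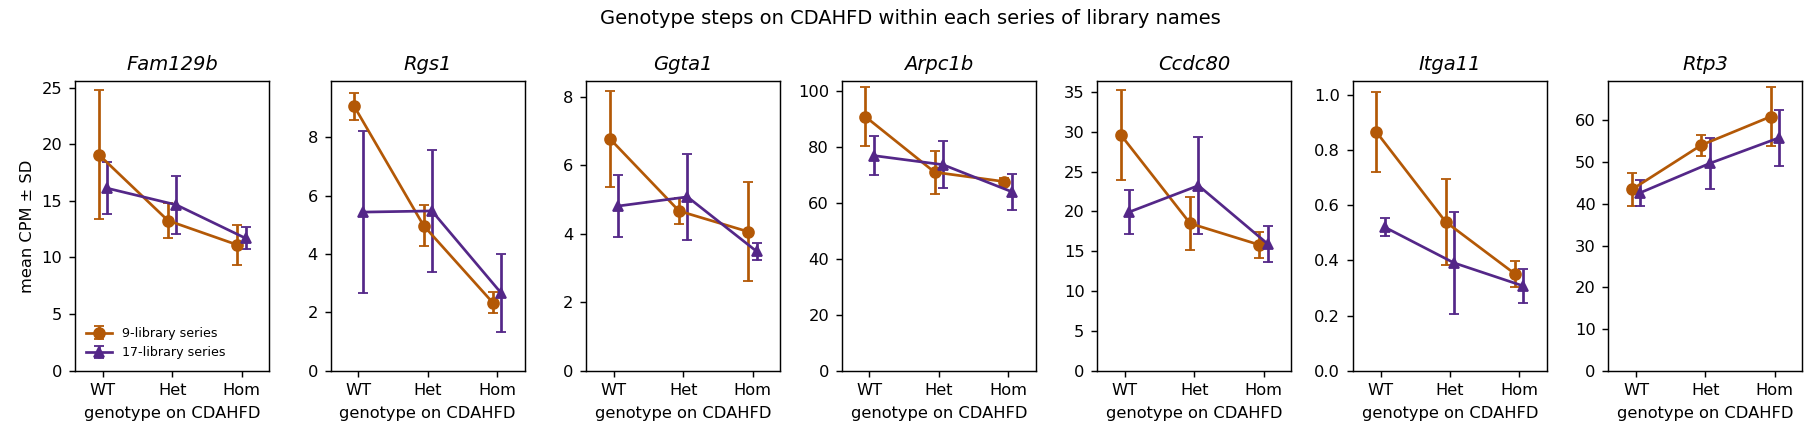
Mean CPM ± SD (y axes, linear from 0) of the 7 genes on CDAHFD in wildtype (WT), heterozygous (Het) and homozygous (Hom) livers, drawn separately for the 9-library series (circles; 3, 3 and 2 libraries) and the 17-library series (triangles; 3, 4 and 6 libraries). Wildtype means of the 6 falling genes are higher in the 9-library series, and the heterozygous step of Rgs1, Ggta1 and Ccdc80 is seen in the 9-library series alone.

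All 7 genes differed between wildtype CDAHFD and wildtype chow livers, each against the direction of its genotype steps. These values share the wildtype CDAHFD libraries with the contrast that chose the genes and are not independent of it. That sharing favours the opposite direction, so nothing is read from the opposition itself. By edgeR's quasi-likelihood test with Benjamini-Hochberg adjustment over all genes, 6 of the 7 rose and 1 fell, where 27.1% of all tested genes were called (14.8% higher, 12.2% lower). Rgs1 rose most, by 2.96 ± 0.40 (SE) on the log2 scale (adjusted p = 6.9e-06), a 7.79-fold rise. Ccdc80 rose by 1.44 ± 0.17 (adjusted p = 1.71e-06) and Itga11 by 1.29 ± 0.35 (adjusted p = 0.00731). Itga11 had 2 to 10 counts per chow library and 12 to 30 per wildtype CDAHFD library. It thus met the filter on low counts through the higher group, which favours a call. Ggta1 rose by 0.75 ± 0.17 (adjusted p = 0.00173), Fam129b by 0.62 ± 0.13 (adjusted p = 0.000994) and Arpc1b by 0.61 ± 0.09 (adjusted p = 2.88e-05). Rtp3 was at -0.88 ± 0.13 (adjusted p = 1.36e-05), or 54.3% of the chow mean. Chow and wildtype CDAHFD libraries did not overlap for 5 of the 7, Fam129b, Rgs1, Arpc1b and Ccdc80 above chow and Rtp3 below it, against 13.9% of all tested genes (7.95% higher, 5.93% lower). For Ggta1 and Itga11 29 of 30 pairs of libraries went the same way, and the diet call of these 2 genes was lost in the 17-library series alone, at 0.44 (edgeR adjusted p = 0.127) and 0.65 (edgeR adjusted p = 0.343). Over all alternatives their adjusted p ran from 0.000307 to 0.160 for Ggta1 and from 0.00378 to 0.343 for Itga11. The 1 chow library of the 9-library series weighs on Rgs1 and Rtp3. Without it the diet change was 3.55 for Rgs1 (edgeR adjusted p = 2.3e-06) and -1.01 for Rtp3 (edgeR adjusted p = 6.83e-07). In the 9-library series alone, where it is the only chow library, the change was 2.09 for Rgs1 (edgeR adjusted p = 0.0116) and -0.19 for Rtp3 (edgeR adjusted p = 0.687), and Fam129b, Ggta1, Arpc1b and Itga11 were not called either.

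The knockout livers were also set against chow. These comparisons use the knockout libraries that chose the genes, so they are not independent of that choice, and they share the 5 chow libraries with the diet comparison. In heterozygous livers 4 of the 7 genes were above chow and 1 below it by edgeR, where 37.2% of all tested genes were called (19.3% higher, 17.9% lower). Rgs1 was 2.50 ± 0.39 (SE, log2; adjusted p = 3.62e-05), Ccdc80 1.22 ± 0.17 (adjusted p = 7.98e-06), Ggta1 0.50 ± 0.17 (adjusted p = 0.0192) and Arpc1b 0.40 ± 0.09 (adjusted p = 0.00146) above chow by edgeR, each with no overlap of libraries (13.7% of all tested genes, 7.58% higher and 6.1% lower). Without the chow library of the 9-library series Rgs1 was 3.09 above chow (edgeR adjusted p = 7.75e-06). In the 9-library series alone these 4 genes were not called, with Rgs1 at 1.23 (edgeR adjusted p = 0.127), Ccdc80 at 1.18 (0.125), Ggta1 at 0.58 (0.457) and Arpc1b at 0.37 (0.405), and Rtp3 was at 0.13 (0.751). Rtp3 was at -0.62 ± 0.12 (edgeR adjusted p = 0.000385). Fam129b (0.30, 95% interval 0.04 to 0.55, edgeR adjusted p = 0.0721) and Itga11 (0.68, -0.01 to 1.37, edgeR adjusted p = 0.128) did not pass.

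In homozygous livers 2 genes were above chow and 1 below it, where 23.1% of all tested genes were called (12.3% higher, 10.8% lower). Rgs1 was still 1.47 ± 0.39 above chow (edgeR adjusted p = 0.00717) and Ccdc80 0.80 ± 0.16 above it (edgeR adjusted p = 0.00094). Ccdc80 was the 1 gene of the 7 whose homozygous and chow libraries did not overlap (7.78% of all tested genes, 4.61% higher and 3.16% lower). Rtp3 was at -0.47 ± 0.12 (edgeR adjusted p = 0.00508). Without the 1 chow library of the 9-library series Rgs1 was 2.05 above chow in homozygous livers (edgeR adjusted p = 0.000761). In the 17-library series alone Rgs1 was at 2.11 (edgeR adjusted p = 0.00447), Ccdc80 at 0.78 (0.00346) and Rtp3 at -0.63 (0.00179). In the 9-library series alone none of the 3 was called, with Rgs1 at 0.14 (edgeR adjusted p = 0.918), Ccdc80 at 0.95 (0.329) and Rtp3 above chow at 0.30 (0.665).

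The other 4 genes did not pass in homozygous livers. Their intervals use the homozygous libraries that chose the genes, so the stated 95% level may not hold and no likeness to chow is read from them. Fam129b was at 0.01 (95% interval -0.23 to 0.26, edgeR adjusted p = 0.952) and Ggta1 at 0.07 (-0.25 to 0.38, edgeR adjusted p = 0.80). Itga11, at 0.17, had a wide interval of -0.53 to 0.87 (edgeR adjusted p = 0.767). With only chow and homozygous libraries in the fit, Itga11 did not pass the filter on low counts and was not tested. Arpc1b lay at 0.24 (0.06 to 0.41), just past the threshold with an edgeR adjusted p of 0.0521, and DESeq2 called it (adjusted p = 0.0357), as did voom (adjusted p = 0.0479). Over all alternatives its adjusted p ran from 0.0276 to 0.695.

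**Figure D3:**
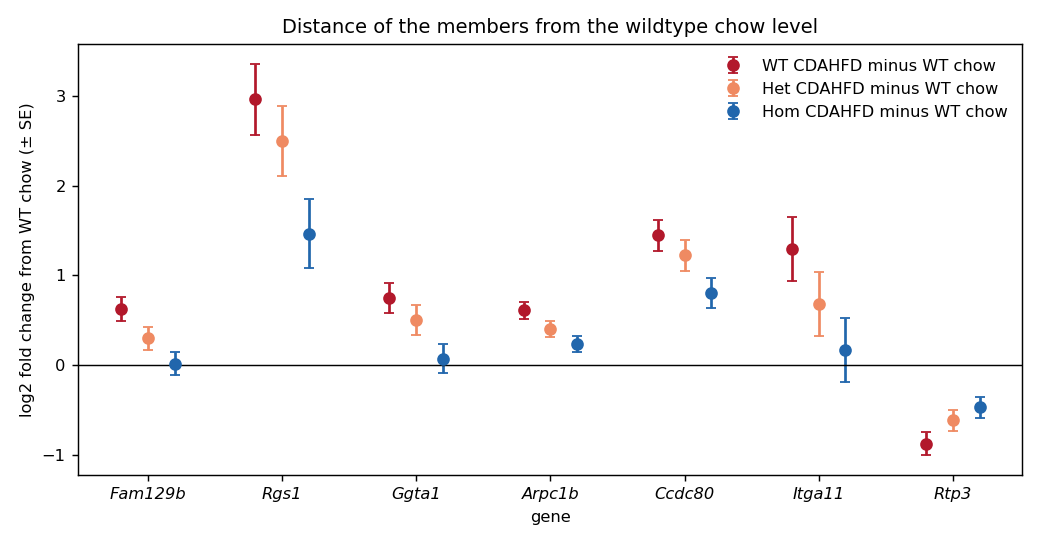
Log2 fold change from wildtype chow ± SE (y axis) for each of the 7 genes (x axis) in wildtype (WT), heterozygous (Het) and homozygous (Hom) livers on CDAHFD; the line marks the chow level, and all 3 series share the same 5 chow libraries. Homozygous Fam129b and Ggta1 sit at the line, while homozygous Rgs1 (1.47), Ccdc80 (0.80) and Rtp3 (-0.47) lie away from it.

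Relatives of each gene were listed by family or complex. These lists were made with earlier results of these data known, so counts within them are a description. Over all tested genes 14.8% were called higher on the diet in wildtype liver and 12.2% lower. Of the 9 other Arp2/3 subunits tested, 4 rose on the diet in wildtype liver: Actr2 (0.29 ± 0.09 (SE), log2), Actr3 (0.56 ± 0.13), Arpc2 (0.27 ± 0.08) and Arpc5 (0.45 ± 0.12), and 0 fell. Arpc1a, the alternative to Arpc1b in the complex, was at 0.01 ± 0.08 (edgeR adjusted p = 0.919), with 42.5 ± 4.77 CPM (SD, n = 5) in chow and 42.9 ± 4.93 (n = 6) in wildtype CDAHFD livers. None of the 9 was called for the trend per copy lost (0 of 9 by edgeR, 0 at an unadjusted p under 0.05), and 8 of 9 estimates were below 0, with a median of -0.03 against 0.01 over all genes. Of 16 regulators of the complex 7 rose on the diet and 0 fell, with Nckap1l (1.31 ± 0.20), Hcls1 (1.28 ± 0.21), Was (1.20 ± 0.23) and Coro1a (1.17 ± 0.24), genes of leukocyte actin control, leading. Their trend estimates per copy lost were -0.24 ± 0.09, -0.20 ± 0.10, -0.26 ± 0.10 and -0.24 ± 0.11, not called by edgeR, and 5 of the 16 had an unadjusted p under 0.05. Over all genes 1626 of 16730 had one.

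Of 7 other RGS proteins of the same subfamily tested, Rgs2 (1.12 ± 0.18 (SE), log2) and Rgs16 (3.28 ± 0.77) rose on the diet and 5 were not called. Rgs2 was at 5.52 ± 1.11 CPM (SD, n = 5) in chow and at 12.02 ± 3.52 (n = 6), 11.2 ± 2.29 (n = 7) and 8.42 ± 1.19 (n = 8) through the 3 genotypes on CDAHFD, a trend of -0.26 ± 0.08 per copy lost (edgeR adjusted p = 0.259). Rgs21 had no counts in any library and Rgs13 was listed at 0 in chow. In the Niban family Fam129a rose on the diet by 1.67 ± 0.22 (edgeR adjusted p = 3.64e-06) and was at 10.5 ± 4.82, 10.3 ± 2.12 and 6.81 ± 0.667 CPM through the genotypes. Fam129c was at 0.23 ± 0.32 on the diet and was not called.

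Both sushi-repeat relatives of Ccdc80 rose on the diet, Srpx by 1.07 ± 0.37 (SE, log2; edgeR adjusted p = 0.0303) and Srpx2 by 0.90 ± 0.18 (edgeR adjusted p = 0.000554). The 4 other chains of collagen-binding integrins were not called on the diet by edgeR. Itga2 was at 0.93 ± 0.38 (edgeR adjusted p = 0.0673), and Itgb1, the beta chain that pairs with Itga11, at 0.30 ± 0.13 (edgeR adjusted p = 0.0791). Of the enzymes related to Ggta1, B4galt1 and Gbgt1 were tested and not called, and 3 were too low to test. Rtp4, an interferon-induced relative of Rtp3, rose on the diet by 0.46 ± 0.15 (edgeR adjusted p = 0.0202), opposite to Rtp3, and its trend was 0.07 ± 0.06 per copy lost (edgeR adjusted p = 0.788). No relative in these lists was called by edgeR for the trend per copy lost.

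Markers of several cell types moved with the same groups. The share called on the diet over all tested genes was 14.8% higher and 12.2% lower. The marker lists were made with earlier results of these data known, so counts within them are a description. On the diet 8 of 8 myofibroblast and matrix markers, 8 of 10 markers of lipid-associated macrophages and 6 of 6 general macrophage markers rose, with 1 fall (Fabp5), while 4 of 7 hepatocyte markers fell and the 7 endothelial markers were not called. Of the other lists, 3 of 6 Kupffer cell, 3 of 4 neutrophil and 1 of 9 lymphocyte markers rose, 1 of 7 stellate markers rose and 1 fell, and those of bile duct and mesothelium were not called. Summed over its 8 genes, the myofibroblast and matrix list ran from 86.4 to 147 CPM in chow, 305 to 797 in wildtype CDAHFD, 275 to 435 in heterozygous and 199 to 359 in homozygous livers. The 10 lipid-associated macrophage genes summed to 205 to 314, 288 to 629, 242 to 535 and 217 to 353 CPM. In chow this sum is weighted by Fabp5, which was at 108 CPM there and at 23.99, 17.1 and 23.4 CPM through the genotypes. On the diet it is weighted by Lpl (38.7 CPM in chow, then 116, 99.6 and 71.5) and Spp1 (62.9, then 103, 82.2 and 80.3). Trem2 was at 1.10, 11.6, 10.8 and 5.69 CPM and Cd68 at 7.87, 28.2, 25.3 and 18.2 CPM. The 6 general macrophage genes summed to 94.3 to 172, 171 to 447, 228 to 315 and 151 to 314 CPM. The 7 stellate markers summed to 266 to 316, 218 to 262, 166 to 314 and 166 to 246 CPM, a sum weighted by Ecm1, which fell from 186 CPM in chow to 116 CPM in wildtype CDAHFD livers. The other 6 stellate markers had diet estimates above 0, of which Pdgfrb was called (0.74 ± 0.14 (SE), log2). The 7 hepatocyte markers summed to 99296 to 127651, 64938 to 99370, 65146 to 95095 and 72933 to 105244 CPM. Most of this sum is Alb, at means of 79822, 55356, 60222 and 64452 CPM. In no list was a marker at 0 in every library, the neutrophil marker Ly6g was at 0 in the 5 chow libraries, and 3 adipocyte markers summed to at most 0.317 CPM. For the trend per copy lost 0 markers of any list were called by edgeR, with 8 of 8 myofibroblast, 6 of 6 general macrophage, 7 of 7 stellate, 7 of 7 endothelial, 4 of 4 neutrophil and 9 of 10 lipid-associated macrophage estimates below 0 and 7 of 7 hepatocyte estimates above 0. The other lists were mixed, with 4 of 6 Kupffer cell, 6 of 9 lymphocyte, 2 of 3 mesothelium and 1 of 4 bile duct estimates below 0. Over all genes the median trend estimate was 0.01, and the share of genes below 0 was not computed. Genes of a list were measured in the same libraries, so nothing is read from these counts of sign. At an unadjusted p under 0.05 by edgeR were 8 of 8 myofibroblast, 8 of 10 lipid-associated macrophage, 5 of 6 general macrophage and 3 of 7 stellate markers, against 1626 of 16730 genes. In the Kupffer cell, lymphocyte, neutrophil, endothelial, bile duct, mesothelium and hepatocyte lists the number was 0. The part of these cell types in the steps of the 7 genes was not tested.

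Within groups, some of the 7 varied together from liver to liver. Whether the spread within groups entered the choice of the genes is not known. After removal of each group's mean from log2 CPM over the 21 CDAHFD libraries, 18 of 21 pairs correlated positively, and 13 of 21 with the number series also removed. The share over all gene pairs was not computed, so nothing is read from these counts. The closest pair was Ggta1 and Arpc1b, with Pearson's r = 0.73 (permutation adjusted p = 0.0208 over 21 pairs) and Spearman's rho = 0.68 (permutation adjusted p = 0.0358). It kept r = 0.73 without the 2 libraries farthest from the median of Ggta1. With means removed by group and number series its r was 0.64 (permutation adjusted p = 0.0638) and its rho 0.65 (permutation adjusted p = 0.0441). Rgs1 and Arpc1b passed by rank alone, with rho = 0.63 (permutation adjusted p = 0.0358), r = 0.48 (permutation adjusted p = 0.23) and, by group and series, rho = 0.46 (permutation adjusted p = 0.531). Fam129b and Ccdc80 had r = 0.57 (permutation adjusted p = 0.23) and rho = 0.41 (permutation adjusted p = 0.322). The 6 pairs that include Rtp3 lay between -0.31 and 0.29 and did not pass.

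The same livers were set against marker scores, each the mean of the standardised log2 CPM of a list, over 35 relations chosen after the data were seen. By r, 8 of the 35 passed, and by rho 11. By rho alone Ggta1 passed with the myofibroblast score (rho = 0.63, permutation adjusted p = 0.0259) and the general macrophage score (rho = 0.57, permutation adjusted p = 0.0447). Fam129b passed by rho alone, inversely, with the hepatocyte score (rho = -0.68, permutation adjusted p = 0.0214). By group and series the r of these relations did not pass (permutation adjusted p = 0.172, 0.645 and 0.308). Arpc1b varied with the lipid-associated macrophage score (r = 0.84, permutation adjusted p = 0.0014; rho = 0.82, permutation adjusted p = 0.00245) and with the general macrophage score (r = 0.77, permutation adjusted p = 0.00385; rho = 0.79, permutation adjusted p = 0.0042). With the number series also removed these r were 0.86 and 0.70, and without the 2 farthest libraries 0.76 and 0.78. Ggta1 varied with the lipid-associated macrophage score (r = 0.76, permutation adjusted p = 0.00595; rho = 0.69, permutation adjusted p = 0.013), at r = 0.73 by group and series and 0.65 without the 2 farthest libraries. Fam129b varied with the myofibroblast and matrix score (r = 0.66, permutation adjusted p = 0.045; rho = 0.64, permutation adjusted p = 0.0396), at r = 0.73 by group and series and 0.50 without the 2 farthest libraries.

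Ccdc80 varied with the stellate score (r = 0.63, permutation adjusted p = 0.019; rho = 0.67, permutation adjusted p = 0.013), at r = 0.61 without the 2 farthest libraries. Rgs1 varied with the lipid-associated macrophage score (r = 0.59, permutation adjusted p = 0.0267; rho = 0.63, permutation adjusted p = 0.0214), at r = 0.58 without the 2 farthest libraries. By group and series neither passed, with r = 0.66 for Ccdc80 (permutation adjusted p = 0.101) and r = 0.48 for Rgs1 (permutation adjusted p = 0.106). Arpc1b was also related to the myofibroblast score (r = 0.68, rho = 0.72) and, inversely, to the hepatocyte score (r = -0.64, rho = -0.58), at 0.55 and -0.50 without the 2 farthest libraries. These 2 missed the threshold by group and series (permutation adjusted p = 0.106 and 0.053). Itga11 passed with none of the 5 scores, its closest being the myofibroblast score (r = 0.54, permutation adjusted p = 0.0657), and for Rtp3 r lay between -0.04 and 0.18.

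**Figure D4:**
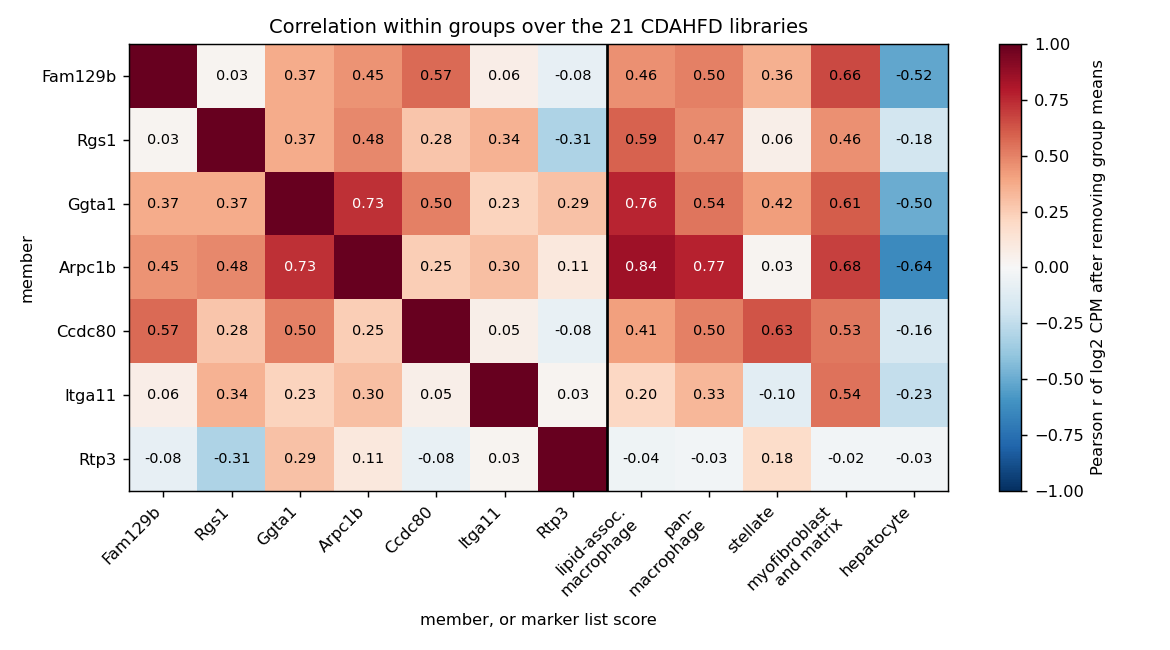
Pearson's r of log2 CPM over the 21 CDAHFD libraries after removal of group means (colour scale from -1 to 1), between the 7 genes (left block) and between each gene and 5 marker scores (right block). Ggta1 and Arpc1b are the closest pair (0.73), Arpc1b is closest to the lipid-associated macrophage score (0.84), and the Rtp3 row is pale, between -0.31 and 0.29.

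The genes most like each of the 7 over the 21 CDAHFD libraries were ranked by Spearman's rho of log2 CPM among 13877 genes of at least 1 CPM. Group differences are part of these values, and libraries share depth and makeup, so they are a description. For Arpc1b they were Arhgap25 (rho = 0.93), Bcl2a1b (0.92) and Glipr1 (0.91), of which Bcl2a1b has near-identical copies that may share reads. For Ggta1 they were the receptor kinase gene Axl (0.92), the macrophage lysosomal gene Cd68 (0.89) and Hip1 (0.89). Rgs1 was most like Rhob (0.91), the chemokine receptor gene Cxcr4 (0.90) and Myl12a (0.85), and with group means removed its rho with Rhob was still 0.90. Ccdc80 was most like the basement membrane collagen gene Col4a2 (0.88), Fabp7 (0.87) and Slc43a2 (0.86), and Fam129b most like Fblim1 (0.86), Frzb (0.85) and Cd93 (0.82). Itga11 was most like Tagln (0.87), Ctla2a (0.75) and Myl9 (0.71), of which Tagln and Myl9 belong to contractile cells. Rtp3 was most like Pi4k2a (0.81), the chaperone gene Hspa5 (0.79) and Tfg (0.75).

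The group means of these genes, chosen for their likeness, show how close that likeness is. Cxcr4 was at 0.854 CPM in chow and at 4.76, 3.95 and 2.79 CPM in wildtype, heterozygous and homozygous livers on the diet, and Tagln at 6.00, 29.1, 18.4 and 14.4 CPM. Axl was at 22.3, 54.7, 49.3 and 39.6 CPM. Hspa5 was at 651, 530.0, 769 and 757 CPM, with close heterozygous and homozygous means, and its diet change was not called (edgeR adjusted p = 0.211).

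Rgs1 lies on chromosome 1, as Mtarc1 does, and the other 6 genes lie on other chromosomes (Fam129b and Ggta1 on 2, Arpc1b on 5, Itga11 and Rtp3 on 9, Ccdc80 on 16). Whether the counting used strand is not stated, and 3 of the genes overlap a gene on the opposite strand with which reads could be mixed. Lrsam1, opposite Fam129b, held 9.83, 9.86, 9.83 and 9.04 CPM through chow and the 3 genotypes on the diet and was not called on the diet (edgeR adjusted p = 0.979). Pdap1, opposite Arpc1b, held 81.2, 66.8, 55.7 and 60.5 CPM, an order unlike that of Arpc1b. Rtp3 has 2 such genes. Gm10030 held 4.78, 3.16, 2.81 and 3.10 CPM and fell on the diet (-0.60 ± 0.18, edgeR adjusted p = 0.0126). 1700061E17Rik held 0.542, 0.133, 0.270 and 0.289 CPM, the same order of means as Rtp3, and also fell on the diet (-1.94 ± 0.59, edgeR adjusted p = 0.0151). It averaged 7.06 counts per library against 1376 for Rtp3. Ggta1 overlaps Gm43761 on the same strand, which averaged 0.769 counts per library against 112.9 for Ggta1.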

How the data were processed

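RNA from mouse liver was sequenced in 26 libraries (5, 6, 7 and 8 per group, from the sample titles). Per the labels' protocols, RNA was taken with a column kit and libraries were made with a NEBNext Ultra II kit. The deposited table holds estimated counts, not scaled for depth, for 55642 Ensembl gene IDs; cutadapt 3.5 and Salmon 1.4.0 and the builds GRCm39 and mm39 are named in the submitters' processing notes. The strand setting and the summing of transcripts to genes are not given in the sources used here. Every column was matched by library name (0 unused columns). Symbols came from the GENCODE annotation of GRCm38, used for names, chromosomes and neighbours, and matched 51475 IDs (92.5%).

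Estimated counts were rounded. The fit over all 26 libraries in 4 groups used edgeR 4.0.16 (R 4.3.3) with TMM, filterByExpr by group and a robust quasi-likelihood model, with Benjamini-Hochberg adjustment over 17104 genes and calls at an adjusted p under 0.05. The trend on copies lost used the 21 CDAHFD libraries and 16730 genes. SE is the estimate divided by the root of F, and intervals are 95%. The biological coefficient of variation was 21.5%, and the mean depth 24.79 M counts (SD 2.65). Libraries of a group differed by 16.9 to 129 in chi-square per degree of freedom over 74 pairs, so none was a duplicate. Correlations used log2 CPM (prior count 2) and 100000 permutations within groups, two-sided. Alternatives were other scaling, DESeq2 1.42.0, limma voom 3.58.1, no filter, only the groups compared, a replicate block, the number series as a covariate or alone, and left-out libraries. The procedure was tested on simulated data. For the trend it recovered 51.6% of changes of 1.5-fold over 2 copies, 77.8% of 2-fold and 96.9% of 4-fold. For the diet contrast it recovered 52.2%, 70.1% and 90.9% of changes of these sizes.

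The 7 genes and all lists were chosen with earlier results of these data known. The text names these 7, Mtarc1, genes of the family and cell marker lists and, per gene, the 3 with the highest Spearman's rho. Genes that overlap the 7 were named after their values were seen.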

Additional observations from a re-analysis of the deposited data

Results flagged for a closer look

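In 32 gene-by-group sets of library values (Mtarc1 and the 7 genes in 4 groups), Dixon's test at the 95% level set 1 library apart in 6. Chance does so in about 1 in 20 groups. Rgs1 had such a library in 3 groups. Wildtype chow sample 1 held 2.12 CPM where the other 4 held 0.534 to 0.792, and without it the chow mean was 0.616 CPM. Wildtype CDAHFD sample 5 held 2.25 CPM against 6.86 to 9.58 in the others, and without it the mean was 8.25 CPM. Homozygous sample 8 held 5.01 CPM against 0.957 to 2.76. Ggta1 had 2: heterozygous sample 4 with 6.84 CPM against 3.98 to 5.04, and homozygous sample 1 with 5.08 CPM against 3.04 to 3.88. For Arpc1b chow sample 3 held 62.1 CPM against 52.5 to 55.1. Heterozygous sample 4 was also the highest of its group for Arpc1b, at 85.9 CPM.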

How the results depend on the processing

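Genes called numbered 4630 for the diet, 3953 for homozygous and 6361 for heterozygous livers against chow, and 1 for the trend. In the 17-library series alone the diet count was 2264. In the 9-library series alone, with 1 chow library, the counts were 418, 7 and 28, and the trend count 2. The trend count was also 2 without a filter and 57 by DESeq2. Leaving out 1 library gave 3769 to 4639 for the diet and 2760 to 4333 and 4787 to 6769 for the knockouts against chow, lowest without chow sample 5 and highest without chow sample 3, and 1 to 2 for the trend (2 without wildtype CDAHFD sample 5 or sample 6, of which 1 was higher without sample 6). With the sample number as a replicate block the counts were 4464, 3119 and 5744, and 2 for the trend. Same-numbered libraries did not deviate together (r from -0.37 to 0.32, median 0.07, over 34 pairs, 16 over 0.1, 8 best matched to their number), so the numbers were not taken as pairs. Of the 21 gene pairs, 1 passed by Pearson's r with group means removed and 0 with number series removed as well.

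The heterozygous minus wildtype difference on the diet changed sign in the 17-library series alone for Rgs1 (0.0147), Ggta1 (0.0848) and Ccdc80 (0.23), and for Ccdc80 without wildtype CDAHFD samples 2 and 3 (0.0113). Rtp3 was above chow in the 9-library series alone, by 0.30 in homozygous and 0.13 in heterozygous livers (edgeR adjusted p = 0.665 and 0.751). In that series the diet call was lost for Fam129b, Ggta1, Arpc1b, Itga11 and Rtp3 (edgeR adjusted p from 0.0603 to 0.687), where 1 chow library is assumed to vary like the other groups. Rgs1 and Ccdc80 also lost their calls against chow there in both knockout groups, and Ggta1 and Arpc1b theirs in heterozygous livers (edgeR adjusted p from 0.125 to 0.918). Fam129b was called above chow in heterozygous livers in the 17-library series alone (edgeR adjusted p = 0.0356). Arpc1b was called above chow in homozygous livers with only those groups in the fit (0.0443), and without chow sample 3, homozygous sample 3 or homozygous sample 5 (edgeR adjusted p from 0.0276 to 0.0469). The cause of these changes was not tested. Itga11 rests on 2 to 30 counts per library.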
